A study of Rattus norvegicus with 6 samples.

Results

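Assembled loci without a gene symbol were examined in rat testis. They are the rows of the gene table whose identifier begins with MSTRG and whose symbol field is empty. MSTRG is the prefix that the transcript assembler StringTie gives to a locus it builds from the reads. There were 2668 such loci among 35291 rows, and the other 32623 rows carried Ensembl gene identifiers. None of the assembled loci carried a symbol, so the identifier number is their only name here. Their positions and sequences were not analysed here.

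The 6 libraries came from testicular tissue of Sprague-Dawley rats, an outbred strain, and were titled as circRNA, lncRNA and mRNA libraries of total RNA. The diabetic group (3 samples) was fed a high-fat diet, received a single injection of streptozotocin (STZ) at 35 mg/kg, a toxin of the pancreatic beta cells, and was sampled 8 weeks later. Persistent hyperglycaemia was required of this group. The non-diabetic group (3 samples, labelled as normal) received citrate buffer, and whether it had the same diet is not stated in the sources used here. The labels number the samples of a group without saying that each is a separate animal, so p-values measure only the spread between these samples. If the diets differed, diet and STZ cannot be told apart.

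A testis is known to transcribe an unusually large part of the genome, above all in spermatocytes and round spermatids, where chromatin is widely open. Much of that RNA is long and non-coding, is little conserved and is absent from gene annotations. A guided assembler joins spliced or overlapping reads into transcripts and numbers the loci along the genome, so that loci with neighbouring numbers are usually neighbours on a chromosome. An assembled locus can be a gene of its own, an unannotated end or exon of a known gene, or a copy of a repeated sequence, and the table does not tell these apart.

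The values are FPKM, fragment counts scaled to transcript length in kilobases and to library size, and the number of fragments behind them is unknown. They summed to between 453304 and 478211 FPKM per sample. The tissue label was checked on markers: the 5 spermatid genes summed to between 7370 and 10050 FPKM in every sample and the 4 genes of the epididymis epithelium to at most 0.170 FPKM. Of the 5 Leydig cell genes, 4 passed the criterion used below in the downward direction. The 5 genes together lay between 26.8 and 55.4 FPKM in the diabetic group and between 81.6 and 115.3 FPKM in non-diabetic group. None of 4 macrophage genes passed, although their sum did not overlap, at 4.35 to 5.80 and 7.12 to 8.99 FPKM. In whole tissue, fewer cells of a type and less RNA per cell cannot be told apart.

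Most of the assembled loci were expressed at a low, narrow range of levels in all samples. The median of the mean level over the 6 samples was 3.30 FPKM, and the central part of the loci, from the 25th to the 75th percentile, lay between 2.21 and 5.69 FPKM. For Ensembl genes the median was 0.720 FPKM, with the same percentiles at 0.0532 and 6.19 FPKM. A mean between 1 and 10 FPKM was found for 2291 loci, or 85.9%, against 26.4% of Ensembl genes. The low end was nearly empty, with 12 loci below 0.5 FPKM, whereas 45.8% of Ensembl genes lay there. At least 1 FPKM in at least 1 sample was reached by 2661 loci. A locus enters the table only if it was assembled from reads of such libraries, while an Ensembl gene is listed whether or not it is expressed, and 4509 Ensembl genes were at 0 in every sample. The low end of the distribution is thus fixed by how rows enter the table and is not a finding.

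**Figure D1:**
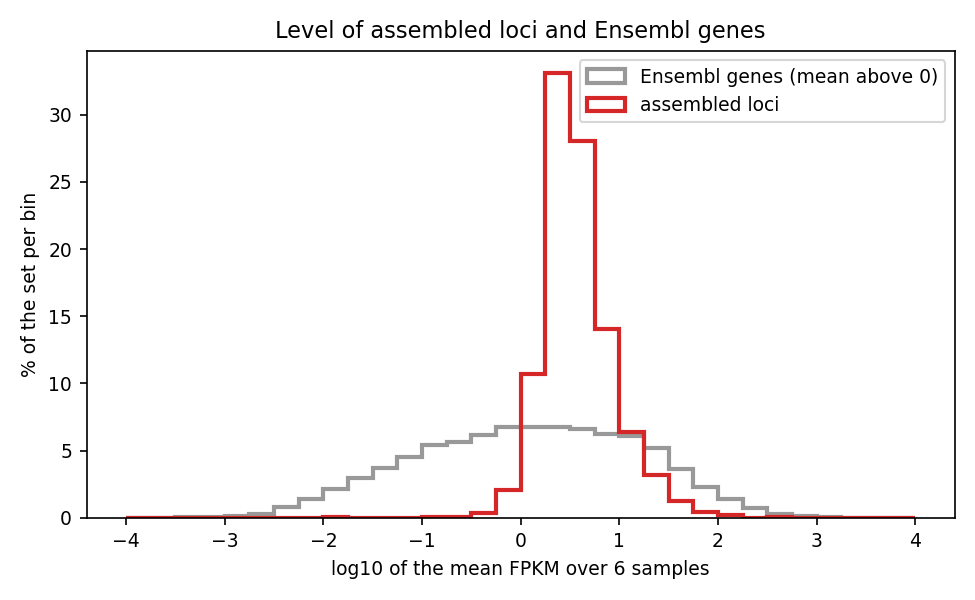
Distribution of the mean FPKM over the 6 samples (horizontal axis, log10 scale) for the 2668 assembled loci and the Ensembl genes, as the percentage of each set per bin (vertical axis). Ensembl genes at 0 in every sample count in the total but fall outside the axis. The loci form 1 peak, with 85.9% between 1 and 10 FPKM, and Ensembl genes are spread over several orders of magnitude.

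The loci held between 3.37% and 3.56% of the summed FPKM of a sample. It was 3.39% in each of the diabetic samples and 3.43%, 3.37% and 3.56% in the non-diabetic samples, and the groups overlapped (exact permutation test, two-sided, p = 0.4). With the 10 most abundant genes left out of the total the means were 3.66% and 3.71% (exact permutation test, p = 0.1). The groups then no longer overlapped, but diabetic sample 2 and non-diabetic sample 1 were both at 3.664%. Non-diabetic sample 2 was at 3.669% and non-diabetic sample 3 stood apart at 3.81%. The median locus was at 1.77, 1.76 and 1.78 on the log2(FPKM + 0.1) scale in the diabetic samples and at 1.79, 1.78 and 1.815 in the non-diabetic samples. Every diabetic sample lay below every non-diabetic sample, by 0.026 between the means (exact permutation test, p = 0.1, the smallest that 3 samples against 3 allow). Over the loci with a mean of 0.5 FPKM or more the exact permutation test gave p = 0.2, and without non-diabetic sample 3 the difference was 0.015. The median log2 fold change over the loci tested was -0.029, against -0.021 over all genes and loci tested.

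A few loci reached the levels of well-known abundant genes. The 8 with the highest means held 7.56% of all FPKM assigned to assembled loci. MSTRG.2531 was the most abundant, at 520.8, 404.0 and 452.1 FPKM in the diabetic and at 380.0, 506.7 and 403.8 FPKM in non-diabetic samples. For scale, the cytoskeletal actin gene Actb lay between 404.8 and 481.7 FPKM and the glycolytic gene Gapdh between 54.2 and 72.5 FPKM over the 6 samples. MSTRG.10916 followed with a mean of 130.9 FPKM, then MSTRG.8855 with 120.2 FPKM and MSTRG.2623 with 113.2 FPKM. MSTRG.12900 and MSTRG.2700 had means of 110.5 and 101.6 FPKM, and MSTRG.11956 and MSTRG.1621 of 96.2 and 79.8 FPKM. The groups overlapped for each of these 8 loci, and their log2 fold changes lay between -0.013 and 0.12 (adjusted p from limma at least 0.758). Their within-group standard deviation on the log2 scale ran from 0.066 for MSTRG.2700 to 0.33 for MSTRG.1621. MSTRG.1621 was at 99.97, 63.5 and 77.6 FPKM in the diabetic samples and at 97.0, 61.2 and 79.3 FPKM in non-diabetic samples, so that the samples numbered 1, 2 and 3 of both groups had nearly the same level.

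The loci varied more between samples of a group than Ensembl genes of the same level. The spread was taken as the residual standard deviation of log2(FPKM + 0.1) around the group means, over the 2656 loci and 17682 Ensembl genes whose mean reached 0.5 FPKM. Between 2 and 5 FPKM, where 1352 loci lay, its median was 0.265 for loci and 0.191 for Ensembl genes, a ratio of 1.39. Between 1 and 2 FPKM the medians were 0.468 and 0.289, and between 5 and 10 FPKM they were 0.214 and 0.136. At 10 FPKM and above they were 0.181 and 0.102. The widest gap was at the lowest level, between 0.5 and 1 FPKM, where the 59 loci had a median of 1.599 against 0.392. Averaged over the level classes with the loci as weights, the ratio was 1.57. The highest sample of a locus was at 1.73 FPKM at the 1st percentile of loci and at 2.17 FPKM at the 5th. A low mean of a locus therefore tends to go with uneven samples, which the listing of an Ensembl gene does not require. This entry of rows bears on the lowest classes, on the averaged ratio and on the counts of uneven loci below, and its part was not tested.

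The comparison depended on which Ensembl genes were used. Those that RefSeq (assembly GRCr8) lists as protein-coding were the steadier ones, with a median of 0.169 between 2 and 5 FPKM and of 0.0973 at 10 FPKM and above. The Ensembl genes with no match in RefSeq lay closer to the loci, most of all between 1 and 5 FPKM. Between 2 and 5 FPKM their median was 0.270, slightly above that of the loci, and the ratio of the medians was 0.982. The ratio to them was 1.14 between 1 and 2 FPKM, 1.21 between 5 and 10 FPKM and 1.36 at 10 FPKM and above. Between 0.5 and 1 FPKM, where the entry of rows bears on the spread, the loci were far above them too, with medians of 1.599 and 0.573. These are descriptions of medians, and no test was made of them because loci are not replicates.

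**Figure D2:**
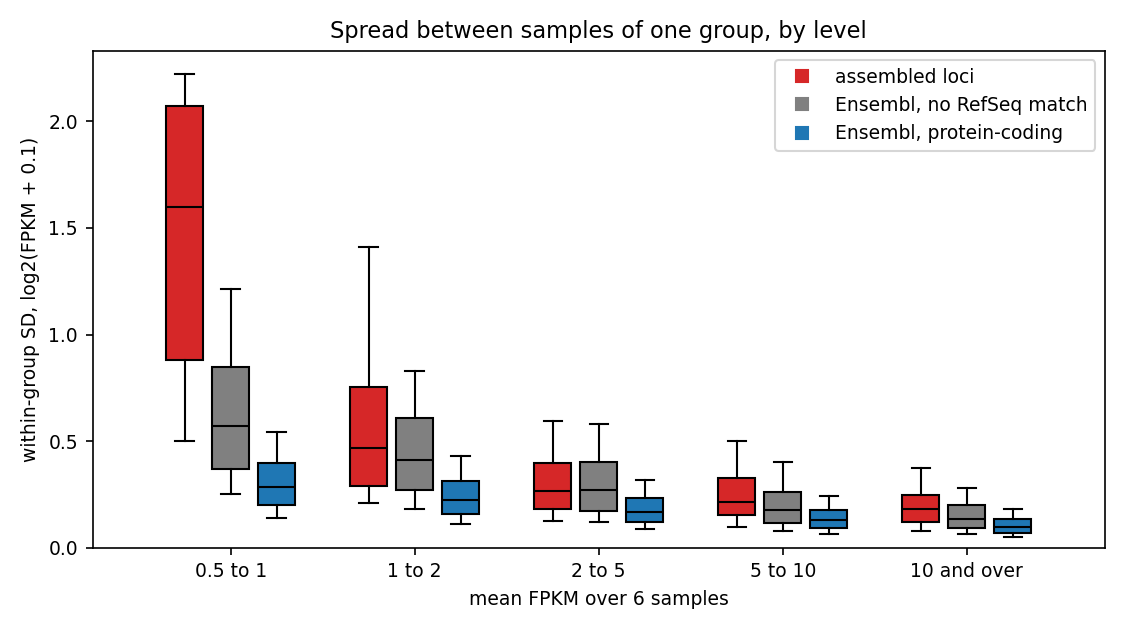
Within-group standard deviation of log2(FPKM + 0.1) (vertical axis) by class of mean FPKM over the 6 samples (horizontal axis), for assembled loci, Ensembl genes with no match in RefSeq and Ensembl protein-coding genes. Boxes span the 25th to 75th percentile with the median as a line, and whiskers reach the 10th and 90th percentiles. The loci lie above the protein-coding genes in every class and near the unmatched Ensembl genes between 2 and 5 FPKM.

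The same spread shows in the agreement of samples across loci. Over the loci the correlation of log2 values was 0.762 to 0.811 for pairs of samples within a group and 0.756 to 0.842 for pairs between groups. For Ensembl genes these ranges were 0.968 to 0.9735 and 0.966 to 0.973. The loci also span a narrower range of levels, which enters such a correlation. Among the loci, pairs within a group were not closer than pairs between groups.

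At one end were loci with almost the same value in all samples of a group. MSTRG.12420 was at 8.93, 8.84 and 8.72 FPKM in the diabetic and at 9.36, 9.29 and 9.01 FPKM in non-diabetic samples, a within-group standard deviation of 0.024 on the log2 scale. MSTRG.15669 lay between 11.5 and 12.2 FPKM in all 6 samples. MSTRG.3682 was at 12.1 to 12.5 FPKM in the diabetic and 12.8 to 13.4 FPKM in non-diabetic samples. MSTRG.5175 was at 2.53 to 2.64 FPKM and at 2.16 to 2.26 FPKM in the same order. A standard deviation under 0.1 was found for 172 loci, or 6.48%, and for 24.5% of Ensembl genes. These shares are not matched for level. At 10 FPKM and above, where spreads were smaller, lay 306 of the 2656 loci and 6447 of the 17682 Ensembl genes.

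At the other end were loci that were high in some samples and listed at 0 in others of the same group. A standard deviation of at least 1, which is a factor of 2 or more, was found for 186 loci, or 7.00%, against 2.44% of Ensembl genes. Among Ensembl genes with no match in RefSeq it was 6.52%, but these genes lay more often at low levels. Within each level class the share was higher for the loci. It was 15.9% against 5.65% between 1 and 2 FPKM and 3.85% against 3.09% between 2 and 5 FPKM. At 10 FPKM and above it was 2.29% against 1.04%. The groups overlapped for 175 of the 186 loci, or 94.1%, while 13.0% of all genes and loci tested had groups that did not overlap. A large spread within groups itself favours overlap, so this count is not a finding. Of the 186 loci 76 were listed at 0 in at least 1 sample. Of the 1134 loci that reached 5 FPKM in some sample, 24 were listed at 0 in another, or 2.12%. The same held for 26 of 9662 Ensembl genes, or 0.269%, and for 17 of 1911 Ensembl genes with no match in RefSeq, or 0.890%. In 11 of the 24 loci the zeros fell in both groups, in 9 only among the diabetic and in 4 only among the non-diabetic samples. None of the 24 passed the criterion for a difference between the groups, and 1 had groups that did not overlap. Of all genes and loci tested 1.24% passed, and 0 of 24 cannot be told apart from that share. Of the 26 Ensembl genes 4 passed, and 1 had groups that did not overlap.

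MSTRG.4069 was at 21.9, 16.5 and 0 FPKM in the diabetic samples and at 23.2, 23.7 and 0 FPKM in non-diabetic samples. It was thus well expressed in 4 samples and listed at 0 in the sample numbered 3 of each group. MSTRG.12221 was at 0, 18.1 and 24.5 FPKM in the diabetic and at 13.6, 0.179 and 0 FPKM in non-diabetic samples. MSTRG.2070 was at 0, 11.6 and 11.5 FPKM and at 0, 0.419 and 10.3 FPKM in the same order. Both were split 3 against 3 across the groups, with high and low samples in each. MSTRG.7697 was at 11.2, 0 and 8.70 FPKM in the diabetic and at 11.4, 8.47 and 0.137 FPKM in non-diabetic samples, so that 1 sample of each group was low. MSTRG.6141 was at 20.6, 10.4 and 0.0495 FPKM and at 7.77, 0.0266 and 0 FPKM. MSTRG.8751 was at 7.26, 0.0328 and 0 FPKM in the diabetic and at 0.120, 13.1 and 8.25 FPKM in non-diabetic samples. MSTRG.8296 was listed at 0 in 1 diabetic sample and reached 14.1 FPKM in another, with the non-diabetic samples between 4.94 and 8.96 FPKM. In each of these loci a gap of more than an order of magnitude separated samples of 1 group.

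MSTRG.1710 was present in a single sample, at 79.2 FPKM in non-diabetic sample 2 and listed at 0 in the other 5. Absence and a failed estimate cannot be told apart from a value of 0 in these data, and genes of wide expression held such values too. Hnrnpab, which encodes an RNA-binding protein of most cell types, was listed at 0 in 2 diabetic samples and at 7.65 to 9.58 FPKM in the other 4. Selenow, a widely expressed selenoprotein gene, was listed at 17.6 FPKM in non-diabetic sample 1 and at 0 in the other 5. A locus is therefore described as listed at 0, and no fold change is given against a group that holds only such values. The number of loci listed at 0 was 41, 23 and 33 in the diabetic and 25, 27 and 32 in the non-diabetic samples, and the groups overlapped (exact permutation test, p = 0.6). In all, 85 loci, or 3.19%, were listed at 0 in 1 to 5 samples, and 2583 loci had a value above 0 in every sample.

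**Figure D3:**
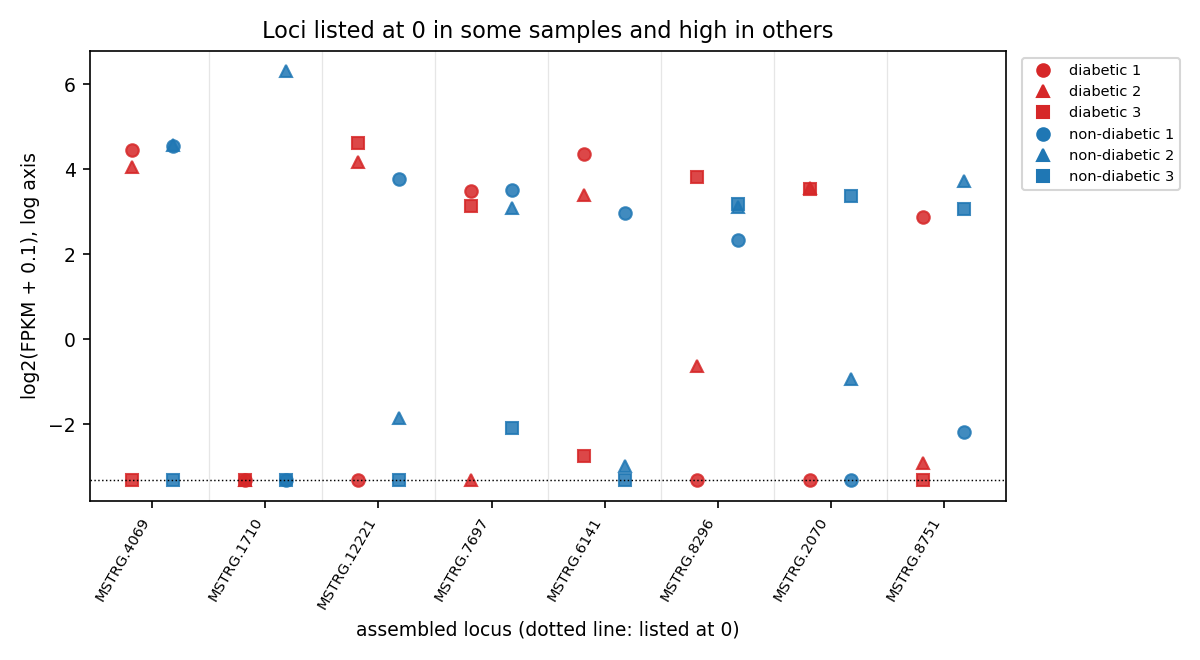
Values on the log2(FPKM + 0.1) scale (vertical axis) in each sample for the named loci that were listed at 0 in some samples or had the largest spread within groups (horizontal axis, ordered by mean). Red symbols are diabetic and blue symbols non-diabetic samples, the shape gives the sample number, and the dotted line marks a value of 0. High and low samples occur within the same group, as in MSTRG.4069, which was at 16.5 to 23.7 FPKM in 4 samples and at 0 in the sample numbered 3 of each group.

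Diabetic and non-diabetic testes were then compared to see which loci differed between the groups. The study's criterion was used, a log2 fold change of 1 or more in either direction together with p below 0.05 before adjustment, here from limma on log2(FPKM + 0.1) over all 20338 genes and loci tested. Of the 2656 loci tested, 67 passed, or 2.52%, against 1.24% of all genes and loci tested and 1.05% of Ensembl genes. Higher levels in diabetic testes were found for 31 loci (1.17%, against 0.398% of all tested) and lower levels for 36 loci (1.36%, against 0.846%). Of the Ensembl genes 50 were higher and 136 lower, and among those with no match in RefSeq 39 were higher and 58 lower. The difference between these splits was not tested. The median absolute log2 fold change was 0.18 for loci, 0.11 for Ensembl genes and 0.17 for those with no match in RefSeq, and the median log2 fold change was -0.029 and -0.020. Within level classes the share of loci past the criterion was 2.15% between 2 and 5 FPKM, where it was 1.025% for Ensembl genes, and 5.31% against 2.01% between 1 and 2 FPKM. Between 0.5 and 1 FPKM a log2 fold change of 1 or more in either direction was found for 44.1% of loci and 6.43% of Ensembl genes. The way loci enter the table goes with uneven samples at a low mean. It thus bears on these shares, and its part was not tested. Against Ensembl genes with no match in RefSeq, of which 1.87% passed in all, the share of loci past the criterion was 1.76 to 3.77 times as high in 4 of the 5 level classes. At 5 to 10 FPKM it was lower, at 1.23% for loci and 2.20% for those genes. Some of these shares rest on few calls. At 10 FPKM and above, where the ratio was 3.77, 2 of 306 loci and 2 of 1153 of those genes passed. Between 0.5 and 1 FPKM 6 of 59 loci and 42 of 1306 genes passed, and at 5 to 10 FPKM 6 of 487 and 11 of 500.

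The size of the difference from Ensembl genes depended on how the variance was estimated. Groups that did not overlap were found for 334 loci, or 12.6%, close to the 13.0% of all genes and loci tested. Of these loci 143 were higher (5.38%, against 4.56% of all tested) and 191 lower (7.19%, against 8.42%). An unadjusted p-value below 0.05 was found for 278 loci, or 10.5%, against 7.46% of all tested. When the variance of each locus was taken as measured and not moderated towards that of all genes of its level, an alternative added after seeing the data, 163 loci, or 6.14%, had an unadjusted p-value below 0.05, against 7.09% of all tested. The criterion was then passed by 29 loci, or 1.09%, against 0.634% of all tested. Of the 67 loci, 50 had groups that did not overlap and 17 had groups that did. The criterion itself favours separate groups, so this count and those by direction below are no further support. With each sample left out in turn, between 57 and 87 loci passed, of which 36 to 51 were among the 67.

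**Figure D4:**
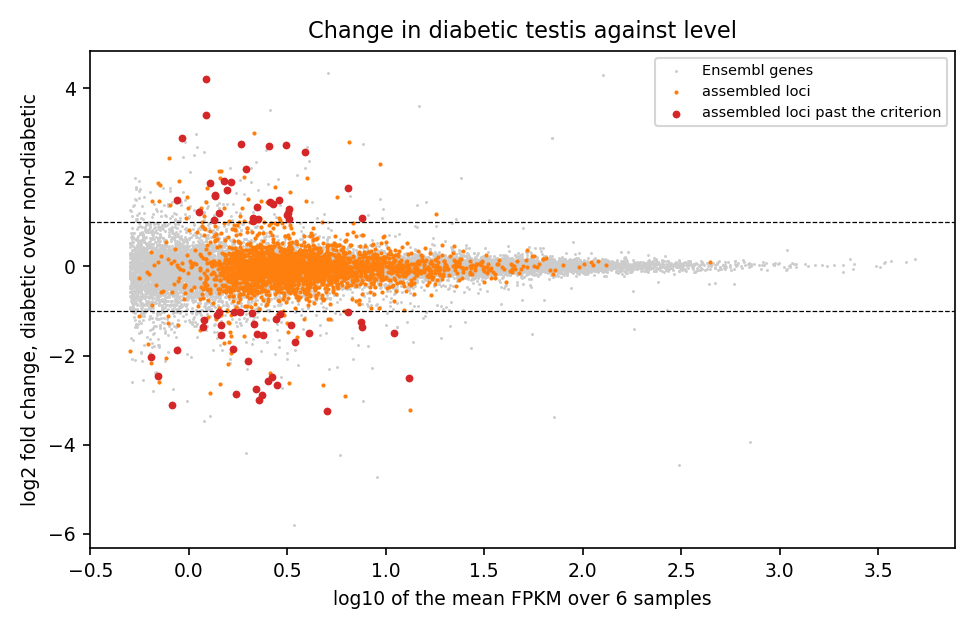
Log2 fold change of diabetic over non-diabetic samples (vertical axis) against the mean FPKM over the 6 samples (horizontal axis, log10 scale) for Ensembl genes, assembled loci and the 67 assembled loci past the criterion. The dashed lines mark a log2 fold change of 1 and -1. The loci past the criterion lie on both sides, 31 above and 36 below, mostly at a few FPKM.

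After Benjamini-Hochberg adjustment over all genes and loci tested, the limma p-value stayed below 0.05 for 2 loci, or 0.0753%, against 0.0344% of all tested. Both were lower in the diabetic testes. MSTRG.10192 was at 6.42, 4.998 and 5.74 FPKM in the diabetic samples and at 19.4, 14.9 and 14.7 FPKM in non-diabetic samples. Every diabetic sample lay below every non-diabetic sample, and the means were 5.72 ± 0.711 and 16.3 ± 2.63 FPKM (SD, n = 3 per group). On the log2 scale the difference was -1.49 ± 0.14 (SE), with an adjusted p of 0.0415 by limma and p = 0.1 by the exact permutation test. The SE here and below comes from limma and uses the moderated variance, not the variance measured for the locus alone. MSTRG.3529 was at 0.373, 0.380 and 0.480 FPKM in the diabetic and at 2.55, 4.81 and 5.08 FPKM in non-diabetic samples. The diabetic values were nearly equal and the non-diabetic values were all at least 2.55 FPKM. Its diabetic mean was 0.411 FPKM, below the minimum mean of 0.5 FPKM, so MSTRG.3529 was tested only through its non-diabetic values. The log2 difference was -2.999 ± 0.29 (SE), with an adjusted p of 0.0434 by limma and p = 0.1 by the exact permutation test. With each sample left out in turn the adjusted p-value from limma was between 0.0518 and 0.151 for MSTRG.10192 and between 0.0144 and 0.199 for MSTRG.3529, so that it was at or above 0.05 in 6 and in 5 of the 6 fits. Without moderation it was 0.355 for both loci, and with no filter it was 0.0788 for both. With moderation but no trend it was 0.0909 for MSTRG.10192 and 0.0750 for MSTRG.3529.

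The locus numbered next to MSTRG.10192 also passed the criterion. MSTRG.10191 was at 7.21, 3.09 and 2.96 FPKM in the diabetic samples and at 12.9, 8.57 and 10.8 FPKM in non-diabetic samples, and the groups did not overlap. The log2 difference was -1.37 ± 0.34 (SE; limma, adjusted p = 0.430). The 5 Leydig cell markers were also lower. Cyp17a1, the steroid 17-alpha-hydroxylase, was at a log2 difference of -1.60 (limma, adjusted p = 0.0415) and was the only one with an adjusted p below 0.05. Star, Cyp11a1, Insl3 and Lhcgr were at -1.24, -1.16, -1.62 and -0.999 (limma, adjusted p = 0.551, 0.486, 0.484 and 0.0559). The part of Leydig cells in the lower loci was not tested.

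Among the loci that were lower in diabetic testes, 27 of the 36 had groups that did not overlap, and 30 had a mean below 5 FPKM. MSTRG.9578 was at 0.104, 0.493 and 0.429 FPKM in the diabetic and at 1.43, 4.61 and 3.39 FPKM in non-diabetic samples, a log2 difference of -2.87 (limma, adjusted p = 0.279). MSTRG.12429 was at 0.537, 0.475 and 0.745 FPKM and at 1.90, 6.76 and 4.74 FPKM in the same order, a log2 difference of -2.58 (limma, adjusted p = 0.218). In both, the lowest non-diabetic value was at least 2 times the highest diabetic value. With each sample left out, the adjusted p-value of MSTRG.12429 from limma ran from 0.0393, without non-diabetic sample 1, to 0.536. MSTRG.11654 was the most abundant of the named loci that were lower, at 14.2, 1.66 and 1.504 FPKM in the diabetic and at 31.0, 15.3 and 15.1 FPKM in non-diabetic samples. Diabetic sample 1 lay just below the non-diabetic range, and the log2 difference was -2.497 ± 0.81 (SE; limma, adjusted p = 0.561). MSTRG.5680 was at 0.270, 2.62 and 0.274 FPKM and at 4.47, 5.78 and 3.43 FPKM in the same order, with diabetic sample 2 near the non-diabetic values. The adjusted p-value of MSTRG.5680 from limma was 0.492, and with each sample left out it ran from 0.0336, without that sample, to 0.860. MSTRG.3474 was at 1.58, 0.281 and 0.521 FPKM in the diabetic samples and at 2.70, 2.39 and 2.54 FPKM in non-diabetic samples, which were close together. MSTRG.5389 and MSTRG.9238 were low everywhere, with means of 0.1125 and 0.141 FPKM in the diabetic and 1.275 and 1.14 FPKM in non-diabetic samples. In MSTRG.9238 diabetic sample 2, at 0.212 FPKM, lay just below non-diabetic sample 1, at 0.235 FPKM. The adjusted p-values from limma were 0.419 for MSTRG.5389 and 0.613 for MSTRG.9238. MSTRG.9578, MSTRG.5389 and MSTRG.9238 had diabetic means below 0.5 FPKM, so these loci reached the minimum mean only through their non-diabetic values.

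Among the loci that were higher in diabetic testes, 23 of the 31 had groups that did not overlap, and 29 had a mean below 5 FPKM. MSTRG.5091 was at 2.32, 1.71 and 3.15 FPKM in the diabetic samples, and in the non-diabetic samples it was listed at 0, 0.131 and 0 FPKM. It was present in every diabetic sample and near or at 0 in every non-diabetic sample (limma, adjusted p = 0.0559). MSTRG.16556 was at 2.12, 1.498 and 1.48 FPKM in the diabetic and at 0.142, 0.201 and 0.0953 FPKM in non-diabetic samples. The log2 difference was 2.87 ± 0.33 (SE; limma, adjusted p = 0.0559), and the gap between the groups was wider than either group. MSTRG.9501 was at 1.95, 2.08 and 2.41 FPKM in the diabetic and at 0.857, 0 and 0 FPKM in non-diabetic samples. The non-diabetic value above 0 was a single one, and the adjusted p-value of MSTRG.9501 from limma was 0.433. MSTRG.5091, MSTRG.16556 and MSTRG.9501 had non-diabetic means below 0.5 FPKM, so these loci reached the minimum mean only through their diabetic values.

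In 3 of the other 5 named loci that were higher, the nearest samples of the groups were close. MSTRG.8117 was at 2.30, 2.99 and 1.89 FPKM in the diabetic and at 0.519, 1.004 and 0.305 FPKM in non-diabetic samples, a log2 difference of 1.91 (limma, adjusted p = 0.300). MSTRG.93 was at 5.21, 4.26 and 5.54 FPKM and at 0.0399, 2.465 and 1.14 FPKM in the same order. MSTRG.8309 was at 3.34, 8.73 and 7.03 FPKM and at 3.24, 0.573 and 0.355 FPKM, so that sample 1 of each group had nearly the same value. MSTRG.1266 was at 5.29, 1.996 and 1.91 FPKM in the diabetic and at 1.66, 0.188 and 0.0529 FPKM in non-diabetic samples. Here non-diabetic sample 1 lay just below the diabetic range. MSTRG.4227 was at 3.72, 1.99 and 1.82 FPKM in the diabetic and at 1.55, 0.489 and 0.207 FPKM in non-diabetic samples, with non-diabetic sample 1 again the highest of its group. The adjusted p-values from limma of MSTRG.93, MSTRG.8309, MSTRG.1266 and MSTRG.4227 were 0.603, 0.492, 0.559 and 0.552.

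**Figure D5:**
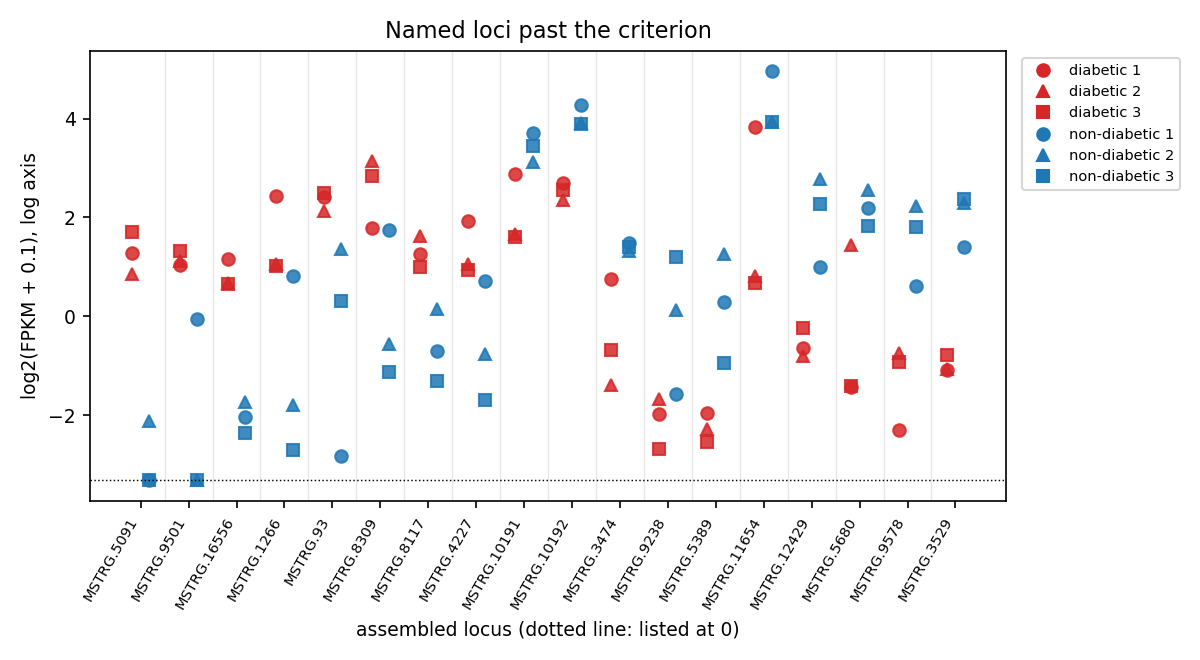
Values on the log2(FPKM + 0.1) scale (vertical axis) in each sample for the 18 named loci past the criterion (horizontal axis), ordered from the largest rise to the largest fall. Red symbols are diabetic and blue symbols non-diabetic samples, the shape gives the sample number, and the dotted line marks a value of 0. The groups do not overlap in any of the 18 loci, which the choice of most of them required. In MSTRG.8309, MSTRG.11654 and MSTRG.9238 the nearest samples of the groups almost touch.

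Loci with neighbouring numbers varied together to some extent. Among the 548 pairs of tested loci with consecutive numbers, the median correlation over the 6 samples of their deviations from the group means was 0.19, and 43 pairs, or 7.85%, had a correlation over 0.9. That share was 6.60% for numbers that differed by 2, 4.55% at a difference of 7 and 2.39% at 10. For numbers that differed by 2, 3 and 5 the medians were 0.15, 0.12 and 0.030, and for numbers that differed by 10 the median was -0.00021 over 461 pairs. These correlations share the 6 samples and are given as a description. In 5 consecutive pairs both loci passed the criterion, against 0 to 2 pairs at each larger difference up to 10. They are named here after their values were seen, and beside MSTRG.10191 and MSTRG.10192 they took different forms. MSTRG.145 and MSTRG.146 were higher together, with log2 fold changes of 1.496 and 1.49 and a correlation of deviations of 0.996, but non-diabetic sample 1 lay within the diabetic range in both. MSTRG.8294 and MSTRG.8295 were also higher, with log2 fold changes of 1.41 and 1.07 (limma, adjusted p = 0.667 and 0.379). The groups overlapped in MSTRG.8294, and with 1 sample left out the log2 fold changes reached 0.91 and 0.85 at the lowest, below the criterion. MSTRG.6735 and MSTRG.6736 moved in opposite directions, and in both the groups did not overlap. MSTRG.6735 was at 3.37, 2.59 and 2.64 FPKM in the diabetic and at 1.28, 1.11 and 1.73 FPKM in non-diabetic samples, while MSTRG.6736 was at 0.874, 0.982 and 0.693 FPKM and at 1.88, 1.61 and 2.32 FPKM. Their log2 fold changes were 1.025 and -1.10, with a correlation of deviations of 0.655 (adjusted p = 0.300 and 0.303 from limma). MSTRG.15052 and MSTRG.15053 were also opposite, with log2 fold changes of 1.44 and -1.87 and a correlation of deviations of -0.72, and the groups overlapped in both. Over the fits that leave out a single sample, the log2 fold change lay between 0.89 and 1.19 for MSTRG.6735 and between -1.22 and -0.965 for MSTRG.6736, so that both fell short of the criterion in at least 1 fit.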

How the data were processed

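Testis libraries of 3 diabetic and 3 non-diabetic Sprague-Dawley rat samples were used. The authors checked reads with FastQC, compared them with rRNA using BWA, aligned them with STAR and assembled transcripts with StringTie, guided by known transcripts. The genome build and tool versions are not given in the sources used here. The authors calculated and deposited FPKM for each gene and locus. The labels name total RNA, and their extraction text also describes poly(A) selection. Values were transformed to log2(FPKM + 0.1). The 20338 rows whose mean reached 0.5 FPKM were tested two-sided with limma 3.58.1 under R 4.3.3 (lmFit, then eBayes with its trend option), and p-values were adjusted over all of them by the Benjamini-Hochberg method. For single values per sample an exact permutation test was run (scipy 1.17.1, Python 3.11.15). The steps were tested on simulated data in which the spread of each row was capped, so that check does not cover the most uneven loci. Types of Ensembl genes came from RefSeq (GRCr8), which matched 17294 of 32623 genes.

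Loci were named by rule: an adjusted p-value below 0.05; the 8 largest rises and 8 largest falls past the criterion with groups that do not overlap and at least 1 FPKM in the higher group; the 8 highest means; the 6 largest and 4 smallest within-group standard deviations at a mean of at least 1 FPKM; the 6 highest values among loci listed at 0 in 1 to 5 samples; and loci with the next number that pass the criterion. The members, lists and tests were chosen with earlier results of these data known.

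Other settings were pseudocounts of 1 and 0.01, no filter, a minimum mean of 1 FPKM, median-ratio scaling, rescaling to TPM, eBayes without the trend or robust, the replicate number as a block, level classes by the median, and each sample left out in turn. Genes listed at 0 left out, and variances without moderation, were added after seeing the data.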

Additional observations from a re-analysis of the deposited data

How the results depend on the processing

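A pseudocount of 1 left 35 loci past the criterion (14 higher and 21 lower in diabetic testes), against 67 (31 and 36), and variances without moderation left 29 (12 and 17). With each sample left out the ranges were 57 to 87, 24 to 43 and 30 to 45. The count of loci with an adjusted p-value below 0.05 by limma, 2, became 0 with no filter and without moderation, where 252 and 163 loci had an unadjusted p-value below 0.05. It was 0 to 4 with a sample left out: 0 without diabetic sample 3 or without non-diabetic sample 3 (236 and 258 loci with an unadjusted p-value below 0.05) and 4 without non-diabetic sample 1. With eBayes without the trend it stayed 2, but neither MSTRG.10192 (adjusted p = 0.0909 by limma) nor MSTRG.3529 (0.0750) was among them, and MSTRG.16556 was (0.0381). With a pseudocount of 1 MSTRG.3529 was at 0.0581. The share of loci past the criterion exceeded that of Ensembl genes of the same level by 1.46 percentage points, by 0.907 with a pseudocount of 1, by 0.469 without moderation and by 0.895 to 2.05 with a sample left out. The ratio of the median spread, 1.57 (1.565), was 1.51 at a minimum mean of 1 FPKM, 1.497 with classes by the median, 1.498 without genes listed at 0, and 1.48 to 1.62 with a sample left out. The ratio of median absolute log2 fold changes, 1.47, was 1.39 to 1.53. The causes were not tested.

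With the replicate number as a block, 84 loci passed the criterion, 1 had an adjusted p-value below 0.05 by limma (MSTRG.10192, 0.0427, against 0.143 for MSTRG.3529), and the difference in shares was 2.06 percentage points. Deviations of same-numbered samples correlated at 0.106, 0.015 and 0.098 over all genes, so the numbers were not taken to pair the samples. Over the loci they were 0.20, 0.033 and 0.22, and each sample correlated best with its own number, a hint from the data and not the design. For the 18 named loci past the criterion, 0 of 285 log2 fold changes under alternatives changed direction, which the choice of loci with separate groups favours, and 19 adjusted calls were lost and 6 gained. Of the other named loci some changed sign with a sample left out, such as MSTRG.4069 (-2.83 to 2.33) and MSTRG.1621 (-0.15 to 0.18). The difference in loci listed at 0 became 0 without diabetic sample 1, and over all genes tested the median log2 difference went from -0.021 to 0.0079 under median-ratio scaling, which centres it by construction. With 3 samples a group and no fragment counts, depth limits cannot be given.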
